A study of Mus musculus with 8 samples.

Results

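The allantois mesoderm of Eomes-KO chimeric mouse embryos was described from the cells that the combined annotation called Allantois. There were 1793 such cells of 28723 in the deposited table, of which 1143 were Eomes-KO and 650 were WT host. That table holds fewer cells than the study's methods give as retained. The rule used the combined label alone. This label had been built from an original and an extended atlas label of each cell, which came from its nearest atlas cells, so those labels and their scores are not independent of the rule. The genotype and the quality measures did not enter it. The mapped stage was not used either, but it came from the same nearest atlas cells as the labels, so it is not independent of the rule.

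The allantois belongs to the extraembryonic mesoderm (ExEM), and its cells descend from the posterior end of the primitive streak. It is known as the tissue that joins the embryo to the placenta, because its mesoderm and endothelium supply the vessels of the umbilical cord. Eomes is a T-box transcription factor of the early epiblast and streak that is known for its part in forming definitive endoderm and cardiac mesoderm. Tbx4, Hoxa13, Hoxa11 and Pitx1 are genes used to recognise allantois or hindlimb-level mesoderm. No gene values were analysed here, so the label was not checked against these markers, and the atlas measures of each cell describe the label without testing it.

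Host embryos were WT C57BL/6 blastocysts of both sexes. They had been injected with male tdTomato+ embryonic stem cells (ESC) that carried CRISPR-made loss-of-function alleles at both copies of Eomes. The labels give collection at around E8.5, with no treatment. Chimeric embryos, about 4 to a tube, were dissociated and sorted into tdTomato+ (Eomes-KO) and tdTomato- (WT host) cells, which gave 4 single-cell libraries of each genotype. Each of the 4 replicates came from an independent Eomes-KO clone, and the embryos of a replicate were pooled. Injected WT ESC were not analysed here, so the loss of Eomes and descent from injected, male ESC cannot be told apart in any difference between the genotypes.

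Libraries are called by their total number of cells. The Eomes-KO libraries of 602, 1153, 3346 and 3465 cells held 76, 115, 539 and 413 allantois cells. The WT host libraries of 2414, 3791, 5819 and 8133 cells held 54, 76, 235 and 285. Values by library are given in this order, from the smallest to the largest library of a genotype, wherever 4 values follow each other. Of all cell barcodes, 80 occurred in 2 libraries, and 12 allantois cells carried such a barcode. Both genotypes therefore had a library with fewer than 100 allantois cells, and shares within those libraries carry the widest counting error.

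The first comparison asked how much of each genotype's epiblast-derived tissue was allantois. Visceral, parietal and ExE endoderm and ExE ectoderm were left out of the denominator, as these lineages do not come from the epiblast. The allantois took 12.6% of epiblast-derived cells in the smallest Eomes-KO library and 10%, 16.1% and 11.9% in the others. It took 2.25%, 2.02%, 4.56% and 3.57% in the 4 WT host libraries. Every Eomes-KO library was above every WT host library.

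The Eomes-KO share averaged 12.7% ± 2.55 and the WT host share 3.10% ± 1.19 (SD, n = 4 each). The log2 fold change was 2.02 with a standard error of 0.33 (edgeR quasi-likelihood test, adjusted p = 6.8e-05 over 33 cell types). Of those 33 types, 21.2% were higher in Eomes-KO and 69.7% differed in either direction, so a higher share was not particular to the allantois. A share compares a type with everything else in the library, so it also depends on how many cells of other types are present. What the missing lineages contributed to the higher share was not tested.

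**Figure D1:**
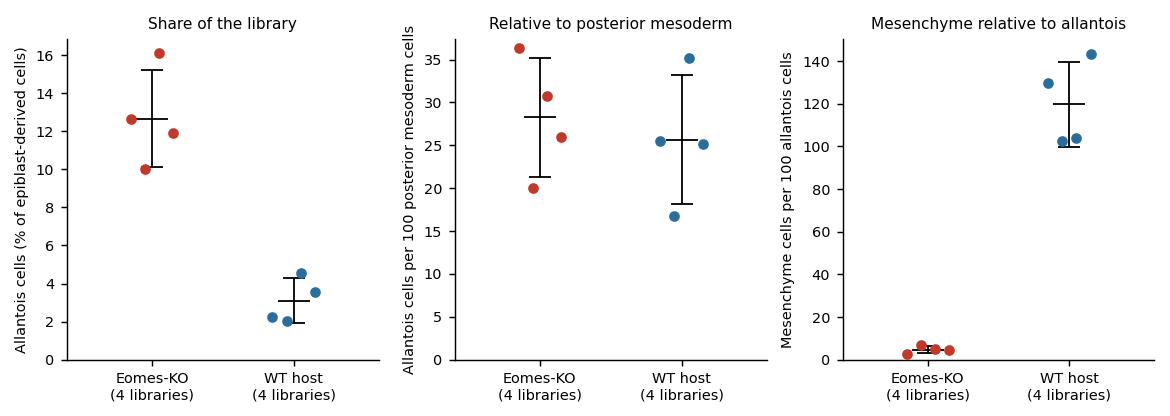
Abundance of the allantois by genotype, with each point 1 library and the bars the mean and SD of 4 libraries. The left panel plots the share of epiblast-derived cells (10% to 16.1% in Eomes-KO, 2.02% to 4.56% in WT host), the middle panel allantois cells per 100 posterior mesoderm cells, which overlapped between genotypes, and the right panel Mesenchyme cells per 100 allantois cells, which did not.

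The allantois was therefore set against the other mesoderm of the posterior embryo. Lateral plate mesoderm (the source of the body wall and limb buds), intermediate mesoderm (the source of the kidney), caudal mesoderm (mesoderm of the tail end) and somitic mesoderm (segmenting trunk mesoderm) were summed. The 4 Eomes-KO libraries held 36.4, 20, 30.7 and 26.0 allantois cells per 100 posterior mesoderm cells. The 4 WT host libraries held 25.5, 16.8, 35.2 and 25.2. These ranges overlapped almost fully. The paper also lists lateral plate mesoderm among ExEM populations, so this sum is not of embryonic mesoderm alone.

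The mean log2 ratio was higher in Eomes-KO by 0.15, which was within the spread between libraries (two-sided exact permutation test over the 8 libraries, p = 0.57). The sign of that difference was not stable, at -0.036 without the WT host library of 3791 cells, 0.32 without that of 5819, -0.24 in libraries with at least 100 allantois cells and 0.92 within 8000 to 16000 unique molecular identifiers (UMIs, the molecules counted per cell). Across the same libraries, edgeR with posterior mesoderm cells as the library size gave a log2 fold change of 0.12 with a standard error of 0.26. Thus the excess of allantois among Eomes-KO cells was not detectable once it was counted against posterior mesoderm, although errors of this size do not show that the ratios were equal.

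By single type, the ratio to lateral plate mesoderm was lower in Eomes-KO by a log2 difference of -0.36, and that to caudal mesoderm by -0.46. The ratio to intermediate mesoderm differed by 0.18. None of the 3 separated the genotypes. Allantois cells per somitic mesoderm cell were 2.38, 2.45, 2.91 and 7.79 in the 4 Eomes-KO libraries, against 0.900, 0.517, 1.54 and 1.62 in the 4 WT host libraries. These did not overlap, with a log2 difference of 1.70 (exact permutation p = 0.029, the smallest that 4 against 4 libraries can give), but the adjusted p over the 5 ratios was 0.14.

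The relation of the allantois to other ExEM labels, with lateral plate mesoderm left out, was unlike that to posterior mesoderm. Mesenchyme here is the atlas label for loose extraembryonic mesoderm. For each 100 allantois cells there were 2.63, 6.96, 4.82 and 4.60 Mesenchyme cells in the 4 Eomes-KO libraries. There were 130, 103, 104 and 143 in the 4 WT host libraries. Mesenchyme thus outnumbered allantois in each WT host library and was a small minority beside it in each Eomes-KO library.

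As a share of epiblast-derived cells, Mesenchyme fell by 2.59 on the log2 scale in Eomes-KO (standard error 0.44, edgeR adjusted p = 8.0e-05). Yolk sac (YS) mesothelium, a mesodermal lining of the YS, held 87 WT host cells and 0 of 8561 Eomes-KO epiblast-derived cells, which allows a share of up to 0.035%. Of the 4 ExEM types counted here (allantois, allantois endothelium, Mesenchyme and YS mesothelium), the allantois made up 80.2% to 97.4% in the Eomes-KO libraries and 32.5% to 39.8% in the WT host libraries. Lateral plate mesoderm, which the paper also lists among ExEM populations, was left out of this sum. It held 1919 Eomes-KO and 788 WT host cells, against 1143 and 650 in the allantois.

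Allantois endothelium, the vascular derivative of the bud, numbered 0, 4.35, 16.9 and 20.1 cells per 100 allantois cells in the 4 Eomes-KO libraries. The 4 WT host libraries held 59.3, 43.4, 35.7 and 34.4. Its own share of epiblast-derived cells did not differ detectably, with a log2 fold change of 0.28 and a standard error of 0.63 (edgeR adjusted p = 0.70). The 0 of 601 epiblast-derived cells in the smallest Eomes-KO library allows a share of up to 0.50%.

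How firmly the cells matched allantois in the reference was read from the label score. For each cell it gives how much of its 15 nearest neighbours in the atlas bore the label that was transferred, as a fraction. A score of 1 means that all 15 carried it. The mean score of allantois cells was 0.867, 0.838, 0.853 and 0.822 in the 4 Eomes-KO libraries. It was 0.920, 0.915, 0.907 and 0.907 in the 4 WT host libraries. No Eomes-KO library reached the lowest WT host library.

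Eomes-KO libraries averaged 0.845 ± 0.019 and WT host libraries 0.912 ± 0.0063 (SD, n = 4 each), a difference of -0.067 (exact permutation p = 0.029, adjusted p = 0.057 over 4 values). The exact test alone therefore missed the threshold after adjustment. Limma on the mean scores of the 11 cell types with at least 10 cells in every library, chosen after the data were seen, gave the same difference with a standard error of 0.013 and an adjusted p of 0.0065. The allantois was the single type called, 9.09% of the 11, and it stayed called when any 1 library was left out (adjusted p 0.0055 to 0.033). Intermediate mesoderm came next, with a higher score in Eomes-KO by 0.038 and a limma adjusted p of 0.076.

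**Figure D2:**
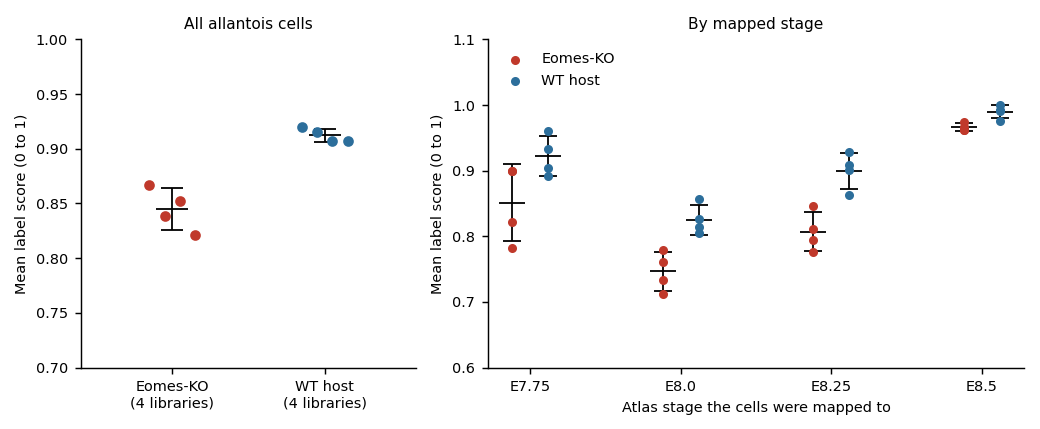
Mean label score of allantois cells (0 to 1, axes not starting at 0), with points for libraries and bars for the mean and SD. On the left all cells are shown, 0.822 to 0.867 in Eomes-KO and 0.907 to 0.920 in WT host. On the right the cells are split by the atlas stage they mapped to, and the Eomes-KO mean was below the WT host mean at each of the 4 stages.

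Full matches were fewer in the Eomes-KO allantois, while low scores were not detectably more frequent. Cells with a score of 1 made up 36.8%, 38.3%, 39.0% and 31.7% of the allantois in the 4 Eomes-KO libraries. The shares were 61.1%, 57.9%, 55.7% and 63.2% in the 4 WT host libraries. The genotypes were well apart, with a difference of -23.0 percentage points (exact permutation p = 0.029, adjusted p = 0.041 over 10 values added after the data were seen). Cells with a score below 0.5 averaged 1.36% ± 1.02 among Eomes-KO and 1.36% ± 0.41 among WT host libraries (SD, n = 4 each).

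The score of the extended label, which comes from a finer atlas annotation, was also lower in Eomes-KO (0.920 ± 0.016 against 0.951 ± 0.0058, SD, n = 4 each). Its exact permutation adjusted p was 0.041, among the same 10 values added after the data were seen.

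Stage and depth were looked at beside the score. At E8.0 the mean score was 0.746 ± 0.029 in Eomes-KO and 0.825 ± 0.023 in WT host (SD, n = 4 each). At E8.25 it was 0.807 ± 0.030 and 0.900 ± 0.027, and at E8.5 it was 0.966 ± 0.0059 and 0.990 ± 0.010. At these 3 stages the libraries of the genotypes did not overlap. At E7.75, with 24 Eomes-KO and 38 WT host cells, the means were 0.851 and 0.922 and the ranges overlapped.

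Pooled over libraries, Eomes-KO cells scored lower in each band of UMIs that both genotypes filled. Under 6000 UMIs the means were 0.837 and 0.912, from 6000 to 12000 they were 0.835 and 0.910, and from 12000 to 20000 they were 0.854 and 0.902. Single libraries weighed heavily, as 68 of 77 Eomes-KO cells under 6000 UMIs came from the library of 3465 and 220 of 260 WT host cells from that of 8133. By library the order did not hold throughout. From 12000 to 20000 UMIs the Eomes-KO library of 602 averaged 0.919 (18 cells), above 0.893 in the WT host library of 5819 (85 cells). The other Eomes-KO libraries averaged 0.772 to 0.866 there. Within 8000 to 16000 UMIs, however, the mean difference over all 8 libraries was -0.015 and the limma call was lost (adjusted p = 0.94, with means over fewer than 5 cells dropped). That window left 10 cells in the Eomes-KO library of 602, with a mean of 0.953, and 7 in the WT host library of 8133, with a mean of 0.762. The other 3 Eomes-KO libraries (42 to 274 cells) had means of 0.824, 0.867 and 0.808, and the other 3 WT host libraries (30 to 159 cells) had 0.927, 0.915 and 0.909, a difference of -0.084. Over all 8 libraries the same window also ended the calls on full matches (-3.39 percentage points) and on the extended score (-0.0066), and the 6 better filled libraries gave -23.1 and -0.044. The part of depth in the score difference was not tested beyond these values.

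Within each library the allantois was compared with the other epiblast-derived cells. The score is a vote for the label that defined the allantois, so its level beside other labels is not independent of the rule. It also depends on how the atlas holds each label. Its mean score was higher than theirs in 7 of 8 libraries, by 0.031 ± 0.021 (SD, n = 8, exact sign-flip adjusted p = 0.027 over 7 measures). This call was lost when cells scoring under 0.5 were left out (0.088), within 8000 to 16000 UMIs (0.23), with medians (0.088) and without any 1 of 6 libraries (0.055), as exact sign-flip adjusted p. The exception was the Eomes-KO library of 3465 cells, at -0.0079. Against posterior mesoderm the score of the allantois was higher in 8 of 8 libraries, by 0.091 ± 0.051 (exact sign-flip adjusted p = 0.0098 over 5 measures). That lead was 0.046 ± 0.024 in Eomes-KO and 0.136 ± 0.0096 in WT host (SD, n = 4 each). The libraries of the genotypes did not overlap (exact permutation adjusted p = 0.041 among the 10 values added after the data were seen). Within 8000 to 16000 UMIs this difference of -0.090 became -0.035 and was no longer called, and it was -0.095 over the 6 libraries with at least 30 allantois cells there.

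The stage each cell mapped to asked whether the allantois of either genotype looked older or younger. Mapping had been allowed to atlas stages from E7.5 to E8.5. The mean mapped day of the allantois was 8.30, 8.23, 8.29 and 8.26 in the 4 Eomes-KO libraries. It was 8.19, 8.29, 8.19 and 8.28 in the 4 WT host libraries. The ranges overlapped, and the means of 8.27 ± 0.033 and 8.24 ± 0.055 (SD, n = 4 each) were not told apart (exact permutation p = 0.31).

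In both genotypes E8.25 was the stage most often assigned, with 48.9% of Eomes-KO and 40.6% of WT host allantois cells. E8.5 took 30.8% and 31.4%, E8.0 took 18.1% and 22%, and E7.75 took 2.10% and 5.85%. A single cell of each genotype mapped to E7.5. The share at E8.5 ran from 17.4% to 38.2% among Eomes-KO libraries and from 18.5% to 41.8% among WT host libraries, so libraries of the same genotype differed more than the genotypes did.

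**Figure D3:**
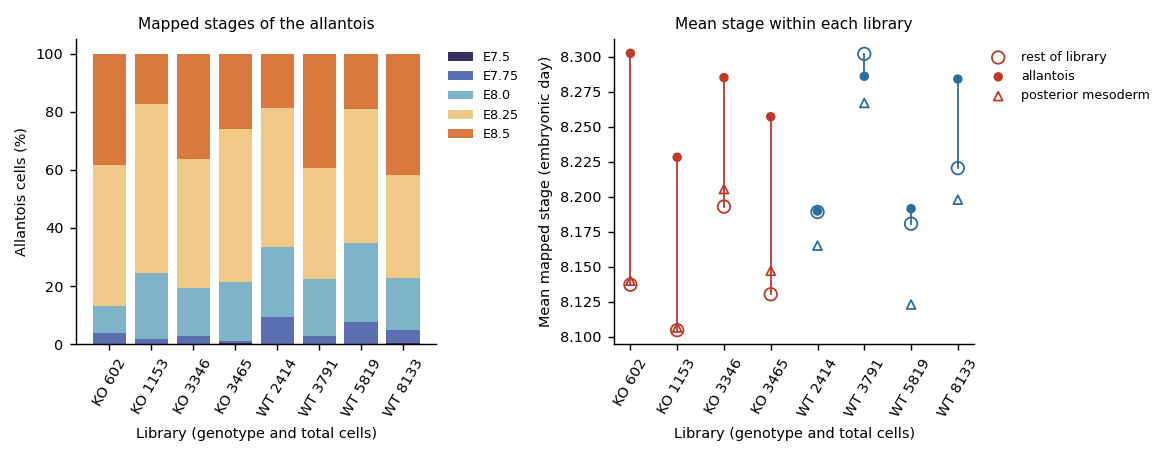
Mapped stage of the allantois, with libraries named by genotype and total cells. The left panel stacks the percent of allantois cells at each atlas stage, and the right panel gives the mean mapped day of the allantois (filled), of the rest of the library (open circles) and of posterior mesoderm (triangles), with the allantois above posterior mesoderm in 8 of 8 libraries.

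Relative to its own library, the Eomes-KO allantois sat later. The allantois mean minus the mean of the other epiblast-derived cells was 0.165, 0.124, 0.092 and 0.127 days in the 4 Eomes-KO libraries. It was 0.00069, -0.016, 0.011 and 0.064 days in the 4 WT host libraries. The genotypes did not overlap, with means of 0.127 ± 0.030 and 0.015 ± 0.034 (SD, n = 4 each), but the exact permutation p of 0.029 became 0.11 after adjustment over 4 values.

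The other cells of the library are not the same mix of types in the genotypes, so posterior mesoderm was used as a second reference. The allantois mapped later than posterior mesoderm in 8 of 8 libraries, by 0.084 ± 0.048 days (SD, n = 8, exact sign-flip adjusted p = 0.0098). Stage and label came from the same atlas cells, so this lead also depends on the stages at which the atlas holds each type. The lead was 0.119 ± 0.034 days in Eomes-KO and 0.050 ± 0.033 in WT host. With that reference the ranges of the genotypes overlapped (exact permutation p = 0.057, adjusted p = 0.071).

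The atlas labels behind the combined label are given as a description, since some agreement with each follows from its making. The original atlas label was Allantois in 1777 of the 1793 cells, Haematoendothelial progenitors (the precursors of blood and endothelium) in 15 and Mixed mesoderm in 1. The extended atlas label was Allantois in 1788, Allantois endothelium in 3 and Lateral plate mesoderm in 2. Each of the 1793 cells carried Allantois in at least 1 of the 2 annotations.

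The 2 annotations disagreed in 21 cells, 11 Eomes-KO and 10 WT host. The percent of cells with another original label was 0.381 ± 0.471 in Eomes-KO and 1.12 ± 0.878 in WT host (SD, n = 4 each), and that with another extended label was 0.385 ± 0.380 and 0.463 ± 0.926. Neither differed beyond the spread between libraries (exact permutation p = 0.20 and 1). The disagreeing cells had a median label score of 0.6, against 0.933 where both labels were Allantois, and 0 of 21 mapped to E8.5.

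A label score below 0.5 was found in 27 cells, 19 Eomes-KO and 8 WT host. Of these, 21 lay just below that value, with 7 of 15 neighbours, and a further 98 cells lay just above it, with 8 of 15. Early stages were more frequent among the low scorers, since 51.9% mapped to E8.0 or before, against 22.7% of the cells at or above 0.5. Their median depth was 6996 UMIs against 10587.5, and 4 of the 27 also had disagreeing labels. The smallest Eomes-KO library held 0 low scorers among 76 cells, which allows a share of up to 3.95%.

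Cells that the extended annotation called Allantois but the combined annotation did not were examined next. They numbered 206, of which 187 were in Lateral plate mesoderm, 18 in Mesenchyme and 1 in Pharyngeal mesoderm. Each of the 187 carried the original atlas label ExE mesoderm, a broad label for extraembryonic mesoderm. None of the 187 mapped to E8.5. The atlas labels of the 187 were thus Allantois (extended) and ExE mesoderm (original). Lateral plate mesoderm was the name that the combined annotation gave them. They were not counted among the 1793.

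The cells so placed in Lateral plate mesoderm were mainly Eomes-KO. Lateral plate mesoderm took 9 of 85, 17 of 132, 69 of 609 and 72 of 483 cells with the extended label Allantois in the 4 Eomes-KO libraries. It took 0 of 56, 3 of 80, 7 of 242 and 10 of 307 in the 4 WT host libraries. The mean share was 12.4% ± 1.91 in Eomes-KO and 2.47% ± 1.69 in WT host (SD, n = 4 each), with no overlap (exact permutation p = 0.029, adjusted p = 0.041). This measure was among the 10 values added after the data were seen. The count of 0 of 56 allows a share of up to 5.36%. Within 8000 to 16000 UMIs the difference was 9.62 percentage points, close to the 9.95 over all cells, but its exact permutation adjusted p rose to 0.095.

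As a part of lateral plate mesoderm, the same cells made up 9.54% ± 2.69 in Eomes-KO and 2.18% ± 1.78 in WT host (SD, n = 4 each, exact permutation adjusted p = 0.041). This too was among the 10 added values. The difference of 7.36 percentage points became 4.89 in libraries with at least 100 allantois cells, and within 8000 to 16000 UMIs it was 9.72 with the call lost (exact permutation adjusted p = 0.095). Mesenchyme held 2 Eomes-KO and 16 WT host cells with the extended label Allantois, of 55 and 800 Mesenchyme cells. These counts were too few to compare as shares. Counted by the extended label alone, the share of Allantois in epiblast-derived cells gave a log2 fold change of 2.14 with a standard error of 0.38 (edgeR), beside 2.02 for the combined label.

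**Figure D4:**
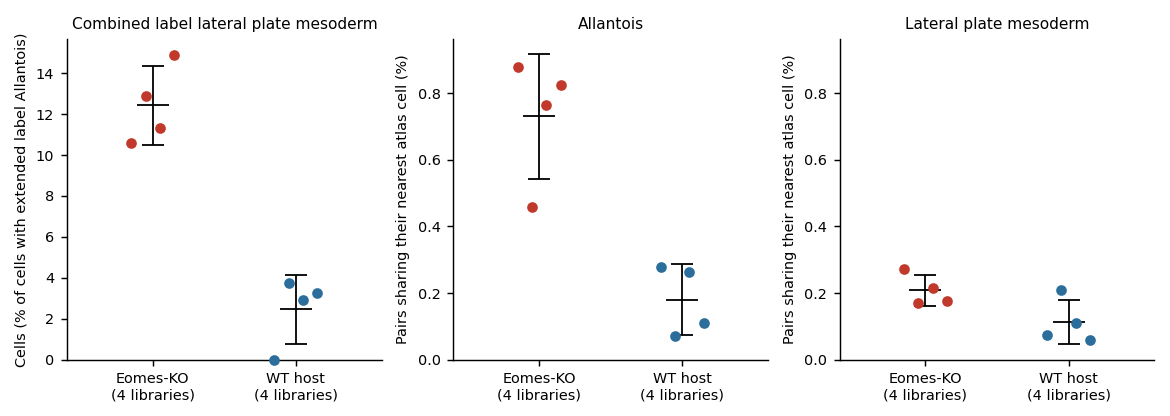
Matching to the atlas by genotype, with points for libraries and bars for the mean and SD of 4 libraries. The left panel plots the percent of cells with extended label Allantois that the combined annotation placed in lateral plate mesoderm (10.6% to 14.9% in Eomes-KO, 0 to 3.75% in WT host), and the other panels plot the percent of pairs of cells in a library that shared their nearest atlas cell, in the allantois and in lateral plate mesoderm.

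The single nearest atlas cell of each allantois cell was also given. Eomes-KO allantois cells had 438 distinct nearest atlas cells and WT host cells had 462, of which 133 were used by both, 30.4% of the former and 28.8% of the latter. A pair of allantois cells drawn from a library shared its nearest atlas cell in 0.877%, 0.458%, 0.763% and 0.825% of pairs in the 4 Eomes-KO libraries. The values were 0.280%, 0.070%, 0.262% and 0.109% in the 4 WT host libraries. Eomes-KO allantois cells thus converged more often on the same atlas cells.

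The means were 0.731% ± 0.188 and 0.180% ± 0.106 (SD, n = 4 each, exact permutation p = 0.029, adjusted p = 0.041). This adjustment and those below were over the 10 values added after the data were seen. Among cells of 8000 to 16000 UMIs, the libraries with at least 30 such cells gave 0.465% to 0.759% in 3 Eomes-KO libraries and 0 to 0.287% in 3 WT host libraries. A like difference was seen in intermediate mesoderm, at 0.206% ± 0.099 against 0.056% ± 0.019 (exact permutation adjusted p = 0.041). In lateral plate mesoderm the values were 0.209% ± 0.047 and 0.113% ± 0.067 and overlapped (exact permutation adjusted p = 0.095). In the 6 libraries with at least 30 allantois cells of 8000 to 16000 UMIs, the genotype difference among such cells was 0.546 percentage points in the allantois, 0.014 in intermediate mesoderm and 0.011 in lateral plate mesoderm. Whether the types differ in this was not tested.

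The atlas cells most used by the allantois were few. By a limit set after the data were seen, 9 atlas cells were each the nearest to at least 18 allantois cells. They took 208 Eomes-KO cells (18.2%) and 8 WT host cells (1.23%), and the most used took 46 Eomes-KO and 2 WT host cells from 5 libraries. The limit counted cells of both genotypes together, and the Eomes-KO allantois had contributed more cells in all. With 8 WT host cells on all 9, these atlas cells passed the limit through Eomes-KO cells. The contrast between the genotypes therefore follows largely from how the 9 were chosen. These counts are a description and were not tested.

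Cell quality was compared last, since depth differed between libraries. The part of depth in the measures above was not tested beyond the values given. Median UMIs per allantois cell were 26690, 17690, 15068 and 8726 in the 4 Eomes-KO libraries. They were 8321, 10389.5, 10526 and 5100 in the 4 WT host libraries. The medians of 3 of the 4 Eomes-KO libraries lay above every WT host median. On the log2 scale the library medians averaged 0.94 higher in Eomes-KO, though the ranges overlapped (exact permutation p = 0.086, adjusted p = 0.19).

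The median number of genes detected ran from 2820 to 5178 in Eomes-KO libraries and from 2098 to 3276 in WT host libraries. The median doublet score, which rises with the likeness of a cell to a mixture of 2 cells, averaged 0.230 ± 0.042 in Eomes-KO and 0.229 ± 0.023 in WT host (SD, n = 4 each). The doublet score was also no clear mark of the allantois, being higher than in the rest of the library in 5 of 8 libraries.

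**Figure D5:**
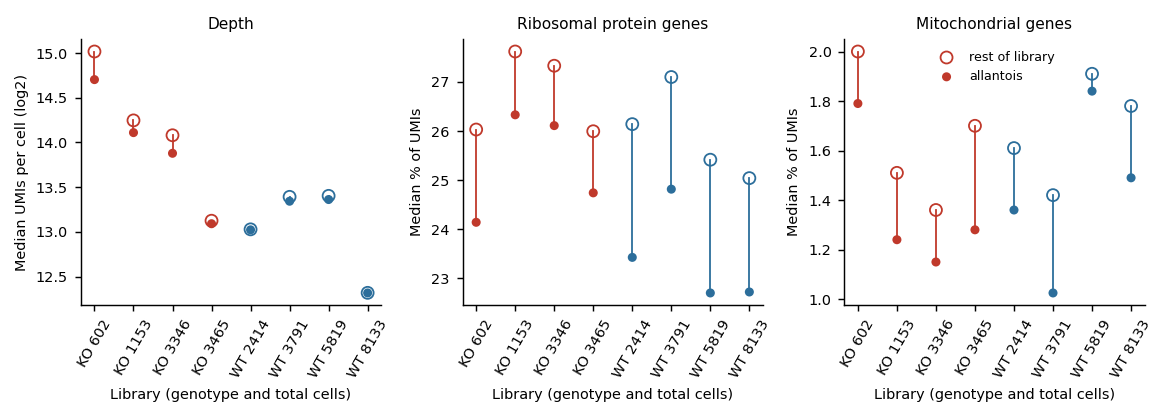
Per-cell quality of the allantois (filled) and of the other epiblast-derived cells of the same library (open), as library medians of log2 UMIs, of the percent of UMIs from ribosomal protein genes and of the percent from mitochondrial genes. The allantois was below the rest in 8 of 8 libraries in each panel, and the y axes do not start at 0.

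The allantois carried less ribosomal protein and mitochondrial RNA than its surroundings. Its median ribosomal percent was below that of the other epiblast-derived cells in 8 of 8 libraries, with a mean difference of -1.96 ± 0.641 percentage points (SD, n = 8), and its mitochondrial percent in 8 of 8, with -0.264 ± 0.111. Log2 UMIs were also lower in 8 of 8, with a mean difference of -0.098 ± 0.11, while the number of genes was higher in 4 and lower in 4. The first 3 had an exact sign-flip adjusted p of 0.018 each. Against posterior mesoderm the ribosomal and mitochondrial percent were again lower in 8 of 8 libraries (exact sign-flip adjusted p = 0.0098 each), whereas UMIs were lower in 5 of 8. Within 8000 to 16000 UMIs the differences from the rest were -2.33 percentage points for ribosomal and -0.186 for mitochondrial percent, and neither passed (exact sign-flip adjusted p = 0.055 and 0.23). Once cells scoring under 0.5 were left out, the difference in UMIs was -0.095 and lost its call (exact sign-flip adjusted p = 0.068). Over all cells the difference in UMIs was -0.172 ± 0.118 in Eomes-KO and -0.024 ± 0.024 in WT host (SD, n = 4 each). The ranges of the genotypes overlapped (exact permutation adjusted p = 0.11).

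In the ribosomal percent the distance to the rest was smaller in Eomes-KO (-1.41 ± 0.319 percentage points) than in WT host (-2.51 ± 0.239, SD, n = 4 each). In the number of genes it was -0.073 ± 0.038 on the log2 scale in Eomes-KO and 0.076 ± 0.024 in WT host. So the WT host allantois had more genes detected than its surroundings in 4 of 4 libraries and the Eomes-KO allantois fewer in 4 of 4. Neither passed after adjustment (exact permutation p = 0.029 and adjusted p = 0.071 for both).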

How the data were processed

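The authors mapped reads with Cell Ranger 6.0.1 to mm10 and filtered cells on depth, genes, mitochondrial and ribosomal percent and a doublet score above 0.5. They transferred labels and stages from the 15 nearest atlas cells after batch correction. The deposited table gives the UMI count of each cell without normalization, the percent of mitochondrial and ribosomal UMIs, and the doublet and label scores. Libraries were assigned to a genotype by their tdTomato status. The members, lists and tests were chosen with earlier results of these data known, and cell types were named by the design's list of posterior and extraembryonic mesoderm labels.

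Cells per label with at least 10 cells were tested with edgeR 4.0.16, with epiblast-derived cells as library size, and mean scores with limma 3.58.1. Other values were compared over libraries by exact permutation (70 arrangements) or sign flips (256, smallest p = 0.0078), two-sided, with Benjamini-Hochberg adjustment at 0.05. Ratios had 0.5 added to each count. DESeq2 1.42.0 was an alternative. In 50 simulations for the 33 labels, with a dispersion (spread beyond counting error) of 0.1, 87.3% of 4-fold changes and 1.26% of unchanged labels were called. Few labels changed there, as many up as down, whereas 69.7% were called in the data. The simulation therefore does not give the error rate for the data. Limits for 0 are 3 cells and cover counting error only. The p-values measure the spread between libraries. Each embryo pool gave 1 library of each genotype, but which libraries shared a pool was not known. All tests, sign flips included, therefore treated the 8 libraries as independent, which they are not fully.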

Additional observations from a re-analysis of the deposited data

Results flagged for a closer look

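In 4 of 80 groups of 4 libraries, 1 library lay far from the other 3, where chance gives about 5% of groups. The WT host library of 5819 cells had the highest log2 ratio of allantois to intermediate mesoderm of its group, at -0.16. The Eomes-KO library of 602 cells had the widest gap in ribosomal percent among the Eomes-KO libraries, at -1.89 percentage points from the rest of the library and -1.73 from posterior mesoderm. The WT host library of 2414 cells held 1.85% of allantois cells with another extended label, which was 1 cell of 54, against 0 in the other 3.

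The distance of the allantois from its own library differed between the genotypes at an unadjusted exact permutation p of 0.029 in 5 measures, each with no overlap between 4 Eomes-KO and 4 WT host libraries. The Eomes-KO distance was lower by a label score of 0.031 from the rest (difference -0.031) and of 0.090 from posterior mesoderm (difference -0.090). The mapped stage lay 0.11 days later, the log2 number of genes was lower (difference -0.15), and the ribosomal percent was higher by 1.1 percentage points. After adjustment the score against posterior mesoderm alone passed (exact permutation adjusted p = 0.041). It was adjusted among 10 values added after the data were seen, and the others in planned families of 4 or 5. Since the unadjusted p was the same in each, this does not set that measure above the others.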

How the results depend on the processing

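The higher share of allantois kept its direction and stayed past the threshold under each alternative, from 1.12 with DESeq2 ratio size factors (adjusted p = 0.0041) to 2.66 with poscounts, and from 1.87 to 2.27 without 1 library. These scalings moved the median of all types by -0.90 and 0.61, and TMM by -0.14. With extended labels 51 of 69 types were called and 13.7% of calls were higher, against 23 of 33 and 30.4%. With 3 libraries against 4 an exact test cannot go below 0.057, so leaving out a library gave values without a test there. No paired analysis was possible because library names do not give the embryo pool. The makeup of the allantois by extended label was not tested by edgeR because Allantois was the single extended label held by at least 10 of its cells.

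The higher score within libraries missed the threshold with scores of at least 0.5 (0.022), within 8000 to 16000 UMIs (0.031), with medians (0.042) and without any 1 of 6 libraries (0.027 to 0.033, adjusted p = 0.055), and it reached 0.036 without the Eomes-KO library of 3465 cells, where it held. The later stage within libraries passed with a stage score of at least 0.5 (0.090) and without the WT host library of 3791 cells (range 0.057 to 0.083). In the UMI window the limma difference in score shrank to -0.015, and, in libraries with at least 30 such cells, the score difference was -0.084 and that in low scorers 1.95 percentage points. The stage lead over the rest differed by 0.077 days between genotypes in libraries with at least 100 allantois cells.

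Signs turned in the UMI window for genotype differences in the log2 ratio to lateral plate (0.037) and caudal mesoderm (0.17), the share at E8.5 (14.6 percentage points), the score relative to the rest (0.020), mitochondrial percent (0.27, and 0.16 relative to the rest), doublet score (-0.11) and ribosomal percent relative to the rest (-0.32). They also turned for the mapped day with a stage score of at least 0.5 (-0.016), for mitochondrial percent relative to the rest with means (0.00062), and for genes within libraries with means (-0.0044) and without 1 library (-0.014 to 0.018). None of these had passed the threshold, and the cause was not tested. In that window the libraries held as few as 7 allantois cells.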
